A study of Homo sapiens with 6 samples.

Results

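The SLC25 family is the set of carriers that move metabolites, nucleotides, cofactors and metal ions through the inner membrane of mitochondria. Its members here were all genes of the count table whose symbol is SLC25A followed by digits, together with the uncoupling proteins UCP1, UCP2 and UCP3 and the outer membrane relatives MTCH1 and MTCH2. This gave 53 genes of the 25987 in the table. Of these, 41 passed the filter on low counts and were tested, among 12944 tested genes in all. Their RNA was measured in 786-O, a human cell line from a clear cell renal carcinoma that is described in the labels as wild type. Both groups were grown in DMEM/F12 medium with 10% serum, and the serum of both was kept overnight in the cold before use. In the copper group (3 libraries) that serum had been loaded with copper sulfate and the cells were adapted to it. In the control group (3 libraries) the serum was handled alike without copper. The dose is 30 uM in the series text, whereas the single samples are labelled 30, 31 and 32 uM for replicates 1, 2 and 3. The labels do not say whether the libraries of a group came from separate cultures, so the p-values measure the spread between these libraries, which may be technical.

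Carriers of this family share a fold of repeated membrane-spanning helices and open in turn to either side of the inner membrane, most of them exchanging one substrate for another. Because the inner membrane is otherwise tight, they set which compounds pass between the cytosol and the matrix. SLC25A3 is of particular interest in a copper experiment. It brings in the phosphate used for ATP synthesis, and it is also the known route for the matrix copper that is later built into cytochrome c oxidase.

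Depth ranged from 16301772 to 18189469 counts per copper library and from 19219090 to 25079913 per control library. Replicate 3 stood apart from replicates 1 and 2 in both groups, and named carriers whose fold change moved with it are given also from replicates 1 and 2 alone. Renal epithelial markers (PAX8, PAX2, LHX1, KRT8 and KRT18) were all tested. In single libraries they ranged from 5.63 to 597 CPM (counts per 1000000 counts of a library, after TMM scaling). VIM, from the same list but not particular to epithelium, had 2760 to 3790 CPM. Of 5 leukocyte markers none was tested, and none exceeded 4 counts in any library. The 4 endothelial markers reached at most 1.36 CPM and the 5 fibroblast markers at most 8.68 CPM.

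The ADP/ATP carriers are close paralogs, and how far their sequences can be told apart bears on which of their counts can be read. The first 60 coding bases of 3 of the paralogs are shown 5′ to 3′ from the GENCODE 29 transcripts on GRCh38. Capitals mark the bases that differ from SLC25A5 at the same position.
SLC25A5 (chrX:119468516-119468575, plus strand): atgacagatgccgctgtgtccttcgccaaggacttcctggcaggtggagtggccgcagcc
SLC25A4 (chr4:185143373-185143432, plus strand): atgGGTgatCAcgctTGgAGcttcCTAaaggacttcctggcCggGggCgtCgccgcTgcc
SLC25A6 (chrX:1391950-1392009, minus strand): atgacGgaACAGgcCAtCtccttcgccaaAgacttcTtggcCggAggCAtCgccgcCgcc
In this stretch SLC25A4 differed from SLC25A5 at 17 positions and SLC25A6 at 16. Each coding sequence had 894 bases. Over that length SLC25A4 was 77.2% and SLC25A6 78.7% identical to SLC25A5. None of the 50-base words of SLC25A4 occurred in another annotated gene, and 4.57% of those of SLC25A5 did, mostly in the pseudogene SLC25A5P3. SLC25A6 is annotated a second time at the same positions on chromosome Y, with the identical sequence, so all (100%) of its 50-base words occur in more than 1 place.

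SLC25A6 was listed at 0 counts in all 6 libraries. The table held 24 genes with annotated copies on both X and Y, and 23 of them were listed at 0 in all libraries. The highest count of any of the 24 was 1. The 0 of SLC25A6 therefore could not be read as its level, and the RNA of the ADP/ATP carriers was read from SLC25A5 and SLC25A4 alone. SLC25A31, a paralog known from testis, had 0 to 2 counts per library.

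Most carriers were expressed, and their summed RNA was alike in the groups. The sum over all 53 genes was 2277 ± 19.0 CPM in copper (SD, n = 3; 2258 to 2296) and 2270 ± 31.8 CPM in control (SD, n = 3; 2243 to 2305), and the groups overlapped. It made up 0.223% to 0.231% of the counts of a library. SLC25A3, SLC25A5, MTCH1 and SLC25A24 together took 40.1% to 42.1% of the carrier reads. Among tested carriers the mean ran from 0.479 to 273 CPM, with a median of 24.6. The plot of levels shows the copper and control libraries overlapping for most carriers.

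**Figure D1:**
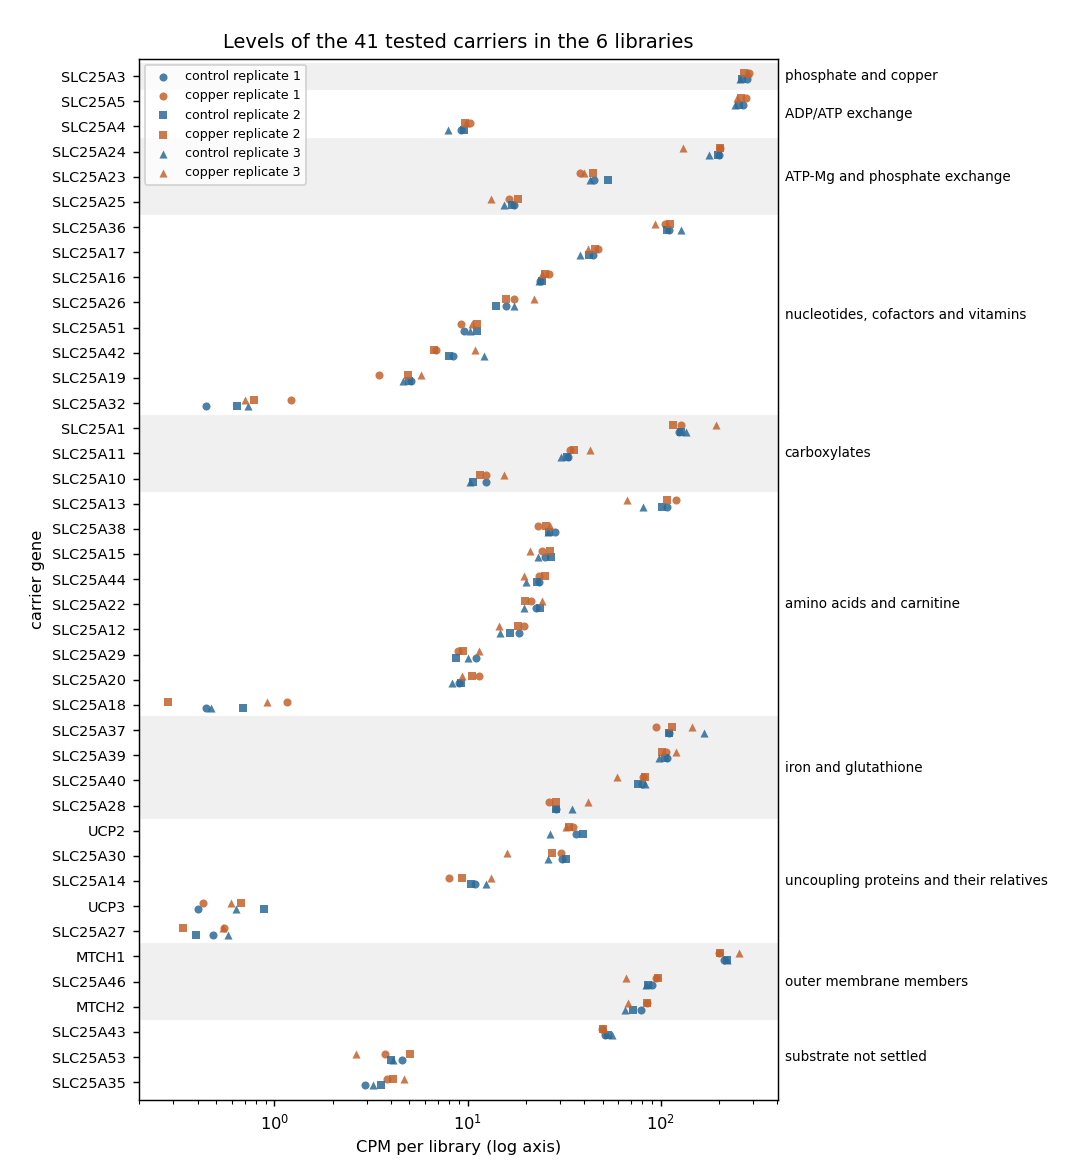
Level of each of the 41 tested carriers in each of the 6 libraries, in CPM on a log axis, with carriers grouped by what they transport. Each point is 1 library. Copper and control points of most carriers overlap, and the points of SLC25A3 lie between 258 and 287 CPM in all libraries.

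Per kilobase of transcript, which allows levels of different genes to be compared, SLC25A5 (203 CPM per kb, mean of 6 libraries) and SLC25A3 (201) stood highest. Their order is not fixed, since the SLC25A3 value was 44.9 with the longest and 213 with the shortest of its transcripts considered. MTCH1 (109), the citrate carrier SLC25A1 (90.8) and the glutathione carrier SLC25A39 (69.1) were lower. The pyrimidine nucleotide carrier SLC25A36 had 84.2 with the transcript used and 23.6 with its longest, so its place is not fixed either. SLC25A4, the ADP/ATP carrier of heart and muscle, stood at 2.12 CPM per kb.

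Between copper and control, no carrier passed the test. By edgeR's quasi-likelihood test with Benjamini-Hochberg adjustment over all 12944 genes, 0 of 41 carriers and 0 of all genes (0.0%) had an adjusted p under 0.05, and each carrier's adjusted p was 1.0. At an unadjusted p under 0.05 there were 0 carriers and 455 genes in all. DESeq2 and limma-voom also called 0 carriers, with 0 at an unadjusted p under 0.05 by either. With the replicate number as a block, 22 genes of 12944 (0.17%) were called and no carrier was among them. In that fit 3 of 41 carriers (SLC25A23, SLC25A30 and SLC25A35) had an unadjusted p under 0.05, as did 1088 of all 12944 genes. The lowest adjusted p of a carrier was 0.577.

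Log2 fold changes of the carriers, copper minus control, spread evenly around 0. They were above 0 for 21 carriers and below 0 for 20, 51.2% above 0 against 51.4% over all tested genes. Their median was 0.00388 (all genes 0.00524), and their median absolute size was 0.0988 (all genes 0.104). Leaving out 1 library turned the sign for 11 of the 24 named carriers that were tested (SLC25A13, MTCH1, UCP2, SLC25A1, SLC25A24, SLC25A28, SLC25A39, SLC25A40, SLC25A12, SLC25A37 and SLC25A5), and none was called. The lowest was -0.271 for SLC25A30 and the highest 0.514 for SLC25A32. The 95% interval held 0 for all 41 carriers. It stayed within 0.5 of 0 on both sides for 23 and within 1 for 39. The exceptions at the latter size were SLC25A32 and SLC25A18, 2 carriers under 1 CPM. A missing call does not show that a carrier was unaffected, and the interval gives the range of change that the spread of these libraries allows.

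**Figure D2:**
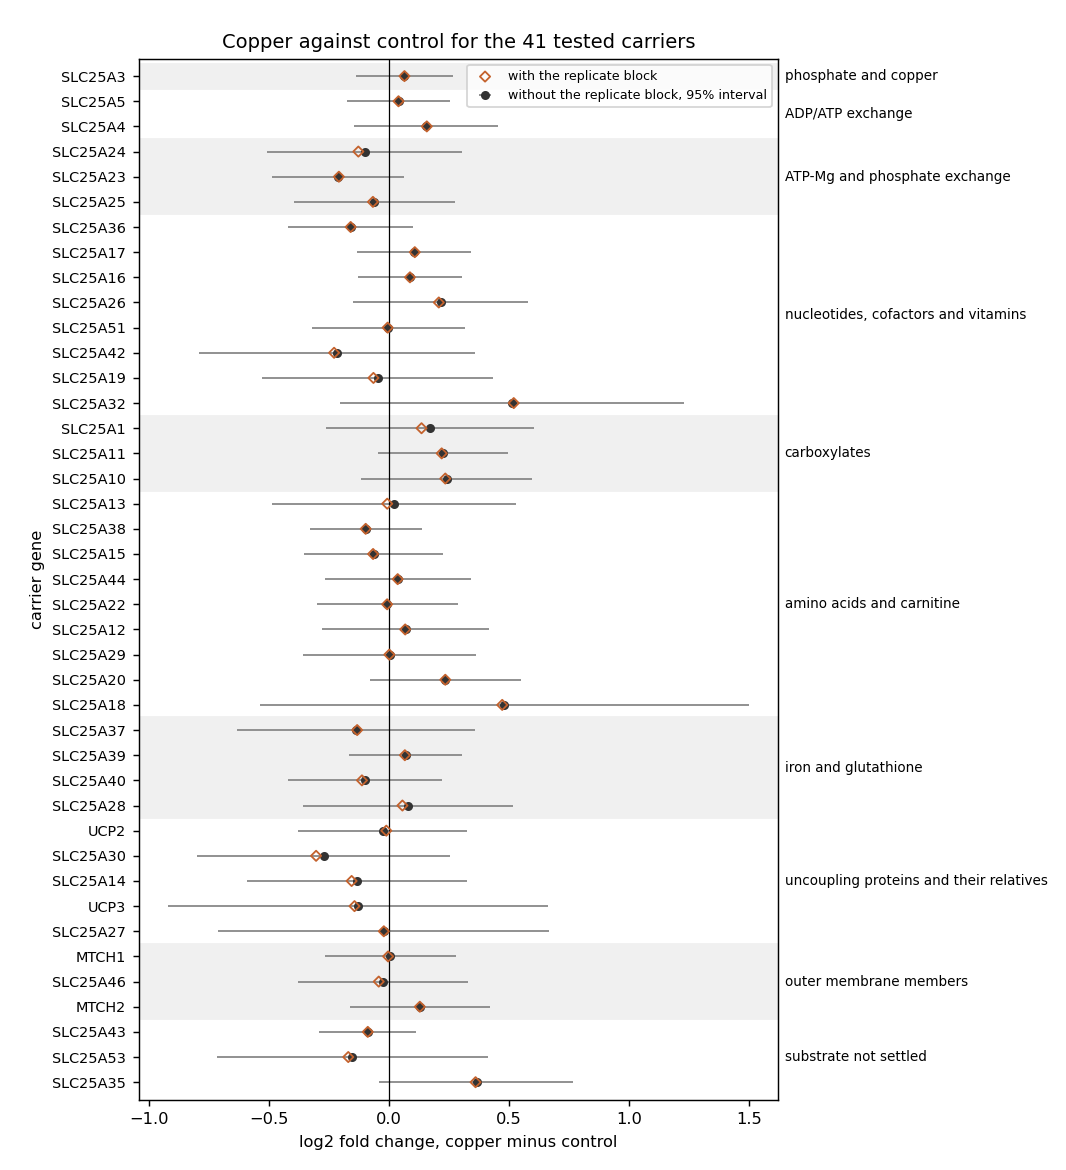
Log2 fold change of the 41 tested carriers, copper minus control, from edgeR. Filled points with bars are the fit without the replicate block and its 95% interval, and open diamonds are the fit with the block; every bar crosses 0, and the widest belong to carriers under 1 CPM.

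SLC25A3 (chromosome 12, 98593686 to 98606366, plus strand), the phosphate and copper carrier, did not pass the test. It had 287, 270 and 282 CPM in copper replicates 1, 2 and 3, and 281, 263 and 258 CPM in the controls. The groups overlapped, and each copper library lay above the control of the same number by 0.0295, 0.0376 and 0.128 on the log2 (CPM + 0.5) scale. Its log2 fold change was 0.0645 (SE 0.087, 95% interval -0.138 to 0.267), with an adjusted p of 1.0 by edgeR and 0.801 with the block, and it was 0.0325 from replicates 1 and 2 alone. It had 4700 to 6979 counts per library and the narrowest interval of the 41 carriers. None of the 50-base words of the transcript used occurred in another annotated gene. Over all its exon bases, 0.292% overlap SNORA53 on the same strand.

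Of the ADP/ATP carriers, which export the ATP made in the matrix against ADP, both tested members had fold changes above 0 and neither passed. SLC25A5 (chromosome X, 119468444 to 119471396, plus strand), the form of dividing cells, had 276, 261 and 248 CPM in copper and 268, 254 and 242 CPM in control. The groups overlapped, and the 3 pair differences lay close together, at 0.043, 0.042 and 0.0354. SLC25A4 (chromosome 4, 185143266 to 185150382, plus strand) had 10.3, 9.70 and 9.82 CPM in copper and 9.21, 9.56 and 7.96 CPM in control. All 3 copper libraries stood above all 3 controls, though copper 2 exceeded control 2 by little, and the log2 fold change was 0.155 (95% interval -0.146 to 0.456). It was 0.0817 without control 3 and 0.0907 from replicates 1 and 2 alone.

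The ATP-Mg and phosphate carriers that were tested all had fold changes below 0 (3 of 3, median -0.101), and none passed. These 3 are gated by calcium and adjust the adenine nucleotide pool of the matrix. SLC25A23 (chromosome 19, 6440064 to 6459792, minus strand) had 38.0, 44.4 and 40.0 CPM in copper and 45.0, 53.5 and 43.3 CPM in control. The groups overlapped by 1 library, copper 2 lying above control 3, and copper was lower within each pair, the differences being -0.238, -0.267 and -0.113. The log2 fold change came to -0.211 (SE 0.118, 95% interval -0.486 to 0.0648), with an adjusted p of 0.577 with the block. This was the 1 carrier that any alternative called. In the block without replicate 3, which called 912 of 12966 genes (7.03%), its log2 fold change was -0.256 with an edgeR adjusted p of 0.0161. Without control 2, the highest library, it was -0.113 with an adjusted p of 1.0.

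SLC25A24, the most expressed of that group at 54.4 CPM per kb, had 204, 202 and 131 CPM in copper and 200, 198 and 178 CPM in control. Replicates 1 and 2 were level between the groups, and replicate 3 was lower in both groups and lowest in copper. Its log2 fold change was -0.101 with all libraries and 0.0297 from replicates 1 and 2 alone. SLC25A41, a further paralog that did not pass the filter, had 1, 0 and 1 counts in copper and 4, 3 and 5 in control.

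Carriers of nucleotides, cofactors and vitamins were split, with 4 of 8 tested above 0 and 4 below (median 0.0428). SLC25A36, which imports pyrimidine nucleotides, had 105, 112 and 93.4 CPM in copper and 111, 108 and 128 CPM in control. Its replicate 3 pair differed by -0.448 and the others by -0.0793 and 0.0499, and its log2 fold change of -0.159 was -0.0144 from replicates 1 and 2 alone. SLC25A26 imports S-adenosylmethionine, the methyl donor, and had 17.3, 15.8 and 22 CPM in copper against 15.8, 14.1 and 17.5 CPM in control. It was higher in copper in every pair, by 0.123, 0.163 and 0.319, while the groups overlapped. The log2 fold change of 0.216 was 0.0654 without copper 3 and 0.14 from replicates 1 and 2 alone. Of its exon bases 15.5% overlap LRIG1 on the opposite strand. SLC25A32, the carrier for folate and FAD, had the highest fold change of the family (0.514, 95% interval -0.202 to 1.23) on few reads. Its counts were 20, 14 and 13 in copper and 11, 13 and 14 in control. Its place rested on replicate 1: the fold change was 0.272 without copper 1, below that of SLC25A35 (0.422), and 0.338 without control 1. In the block without replicate 1 it was 0.0996, and from replicates 1 and 2 alone it was 0.792. Of its 50-base words 87.9% also occur in another gene, the readthrough AC012213.5. How such reads were counted is not given in the sources used here. SLC25A16 (24.4 to 26.4 CPM in copper, 23.5 to 24.3 in control), linked to coenzyme A import, was the 1 member of this group whose libraries did not overlap.

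The carboxylate carriers, which pass citrate, malate, succinate and oxoglutarate, had a median of 0.227 that rested on replicate 3. All 3 tested members lay above 0 and none passed. SLC25A11 (chromosome 17, 4937131 to 4940167, minus strand), the oxoglutarate and malate carrier of the malate-aspartate shuttle, had 34.1, 35.4 and 43.0 CPM in copper and 33.0, 32.6 and 30.6 CPM in control. The groups did not overlap. Copper 3 stood far above the rest, and copper 1 was only just above control 1. Its log2 fold change was 0.227 (SE 0.116, 95% interval -0.0437 to 0.497), 0.117 without copper 3 and 0.0849 from replicates 1 and 2 alone. Of its exon bases 9.14% overlap RNF167 on the opposite strand.

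SLC25A1 (chromosome 22, 19175581 to 19178505, minus strand), which exports citrate for lipid synthesis, had 128, 116 and 193 CPM in copper and 125, 128 and 135 CPM in control. The 5 libraries other than copper 3 lay between 116 and 135. A log2 fold change of 0.17 with all libraries became -0.0538 from replicates 1 and 2 alone. The dicarboxylate carrier SLC25A10 had 12.4, 11.6 and 15.5 CPM in copper and 12.4, 10.7 and 10.3 CPM in control, again with copper 3 highest. The log2 fold change of SLC25A10 was 0.241, and 0.0496 from replicates 1 and 2 alone. Of its 50-base words 56.3% also occur in AC139530.2. In the 3 carriers the median pair difference was 0.0356 in replicate 1, 0.114 in replicate 2 and 0.512 in replicate 3. Their summed level was 175, 163 and 252 CPM in copper and 171, 171 and 176 CPM in control. Most of the difference between these sums lay in 1 library, copper 3.

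Amino acid and carnitine carriers were close to 0 (median 0.0218, 6 of 9 tested above 0). SLC25A20 (chromosome 3, 48856926 to 48898882, minus strand) brings acylcarnitines into the matrix for fatty acid oxidation. It had 11.5, 10.5 and 9.33 CPM in copper and 9.01, 9.27 and 8.28 CPM in control. The groups did not overlap, the lowest copper library lying just above the highest control, and copper was higher by 0.338, 0.17 and 0.164 in the 3 pairs. The log2 fold change was 0.235 (SE 0.135, 95% interval -0.0781 to 0.549).

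The aspartate and glutamate carriers SLC25A13 and SLC25A12 supply the malate-aspartate shuttle and respond to calcium. SLC25A13 had 120, 108 and 67.2 CPM in copper and 108, 102 and 80.7 CPM in control. SLC25A12 had 19.6, 18.3 and 14.5 CPM in copper and 18.5, 16.5 and 14.8 CPM in control. For both, replicate 3 was the lowest library of each group. Against the mean of replicates 1 and 2 it differed by -0.756 in copper and -0.375 in control for SLC25A13, and by -0.371 and -0.229 for SLC25A12, on the log2 scale. The log2 fold changes of the pair were 0.0218 and 0.0694, and the sign of the first reversed with the block (-0.00671). From replicates 1 and 2 alone they were 0.118 and 0.108.

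Among the carriers tied to iron and glutathione, 2 lay above 0 and 2 below (median -0.0147). The mitoferrins SLC25A37 and SLC25A28 import iron for heme and iron-sulfur clusters. SLC25A37 had 94.1, 115 and 145 CPM in copper and 111, 111 and 167 CPM in control. SLC25A28 had 26.4, 28.8 and 42.1 CPM in copper and 28.6, 28.8 and 34.7 CPM in control. Both were highest in replicate 3 of each group and gave log2 fold changes of -0.137 and 0.0793, and of -0.0834 and -0.0579 from replicates 1 and 2 alone. SLC25A39, which carries glutathione into the matrix, had 106, 101 and 120 CPM in copper and 108, 105 and 98.4 CPM in control. Its paralog SLC25A40 had 81.0, 82.8 and 59.6 CPM in copper and 79.9, 76.5 and 82.7 CPM in control. In replicate 3 the paralogs differed from control in opposite directions, by 0.289 and -0.471, while their differences in replicates 1 and 2 lay between -0.0537 and 0.113. Their log2 fold changes were 0.0695 and -0.0988, and -0.0457 and 0.0652 from replicates 1 and 2 alone.

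All 5 tested uncoupling proteins and relatives had fold changes below 0 (median -0.129), and none passed. UCP2, which is known to export aspartate and related acids, had 35.2, 33.5 and 32.2 CPM in copper and 36.5, 39.4 and 26.8 CPM in control. The copper values lay inside the control range, and its log2 fold change of -0.0264 became 0.00151 when libraries were scaled by total counts alone, and -0.144 from replicates 1 and 2. SLC25A30 (chromosome 13, 45393319 to 45418455, minus strand), a carrier first described in kidney, had the lowest fold change of the family when all libraries were used. It had 30.5, 27.5 and 16.1 CPM in copper and 30.8, 32.3 and 26.2 CPM in control. Copper 3 was the low library, the pair differences being -0.0171, -0.23 and -0.683, and the log2 fold change was -0.271 (95% interval -0.797 to 0.255). Without copper 3 it was -0.0416 and from replicates 1 and 2 alone -0.124, where SLC25A23 was lower at -0.196 and -0.252. UCP3 and SLC25A27 were near the limit of the filter with 6 to 18 counts per library, and UCP1, the uncoupling protein of brown fat, had at most 1.

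Of the outer membrane members, MTCH1 had 200, 202 and 255 CPM in copper and 213, 221 and 221 CPM in control, with copper 3 above and copper 1 and 2 below all controls. MTCH2, which inserts proteins into the outer membrane, had 85.1, 84.5 and 68.0 CPM in copper and 79.4, 72.0 and 65.5 CPM in control, higher in copper in all 3 pairs though the groups overlapped. Their log2 fold changes were 0.00611 and 0.131, and the first changed sign with the block (-0.00309). From replicates 1 and 2 alone they were -0.111 and 0.162, and MTCH2 was 0.0641 without control 3 and 0.228 without copper 3.

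SLC25A35 (chromosome 17, 8288860 to 8295343, minus strand), whose substrate is not settled, had the smallest p of the family in the fit without the block. It had 3.84, 4.09 and 4.69 CPM in copper and 2.94, 3.58 and 3.25 CPM in control. The groups did not overlap, and copper was higher by 0.337, 0.172 and 0.471 in the pairs. It had a log2 fold change of 0.365 (SE 0.174, 95% interval -0.0393 to 0.768), with an unadjusted p of 0.0707 by edgeR and 0.0491 with the block. In edgeR with the block, SLC25A23 (0.04) and SLC25A30 (0.0481) had a smaller unadjusted p. From replicates 1 and 2 alone the log2 fold change of SLC25A35 was 0.286. SLC25A35 had 62 to 87 counts per library, and 33.2% of its exon bases overlap RANGRF on the opposite strand. SLC25A43, also of unsettled substrate, had 49.9, 50 and 50.9 CPM in copper and 51.2, 53.4 and 55.9 CPM in control, the 1 tested carrier with every copper library below every control. The log2 fold change was -0.0883 (95% interval -0.292 to 0.115), and -0.0566 without control 3.

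In all, the libraries of the groups did not overlap for 6 of the 41 carriers, against 10.8% of all tested genes. Copper was above control for 5 (SLC25A35, SLC25A11, SLC25A20, SLC25A4 and SLC25A16) and below for 1 (SLC25A43). The 3 pairs had the same sign for 16 carriers (39.0%), against 34.7% of all tested genes. The other 12 carriers, SLC25A6 among them, were not tested and had at most 11 counts in a library. SLC25A45 had the most of these, 6 to 11 counts, and the others were SLC25A31, SLC25A41, SLC25A33, SLC25A52, SLC25A21, SLC25A2, UCP1, SLC25A34, SLC25A47 and SLC25A48.

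Replicate 3 gave the largest median difference between the groups, and it also departed from replicates 1 and 2 within each group. The median absolute pair difference of the carriers, copper against control of the same number, was 0.0876, 0.114 and 0.211 in replicates 1, 2 and 3. That of all genes was 0.098, 0.113 and 0.222. A pair difference beyond 0.3 was found for 6, 1 and 13 of the 41 carriers (14.6%, 2.44% and 31.7%), against 11.6%, 14.5% and 36.1% of all tested genes. Within groups, the median coefficient of variation of a carrier was 14.3% in copper and 8.91% in control. Between replicates 1 and 2 alone, the median difference of a carrier was 6.86% of their mean in copper and 5.36% in control. Replicate 3 departed from the mean of replicates 1 and 2 in the same direction in both groups for 29 carriers (70.7%, all genes 73.8%), higher for 12 and lower for 17, and by a median of 0.307 in copper and 0.152 in control. For all tested genes those medians were 0.312 and 0.16. The plot of pair differences shows the replicate 3 points at the ends of many rows.

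**Figure D3:**
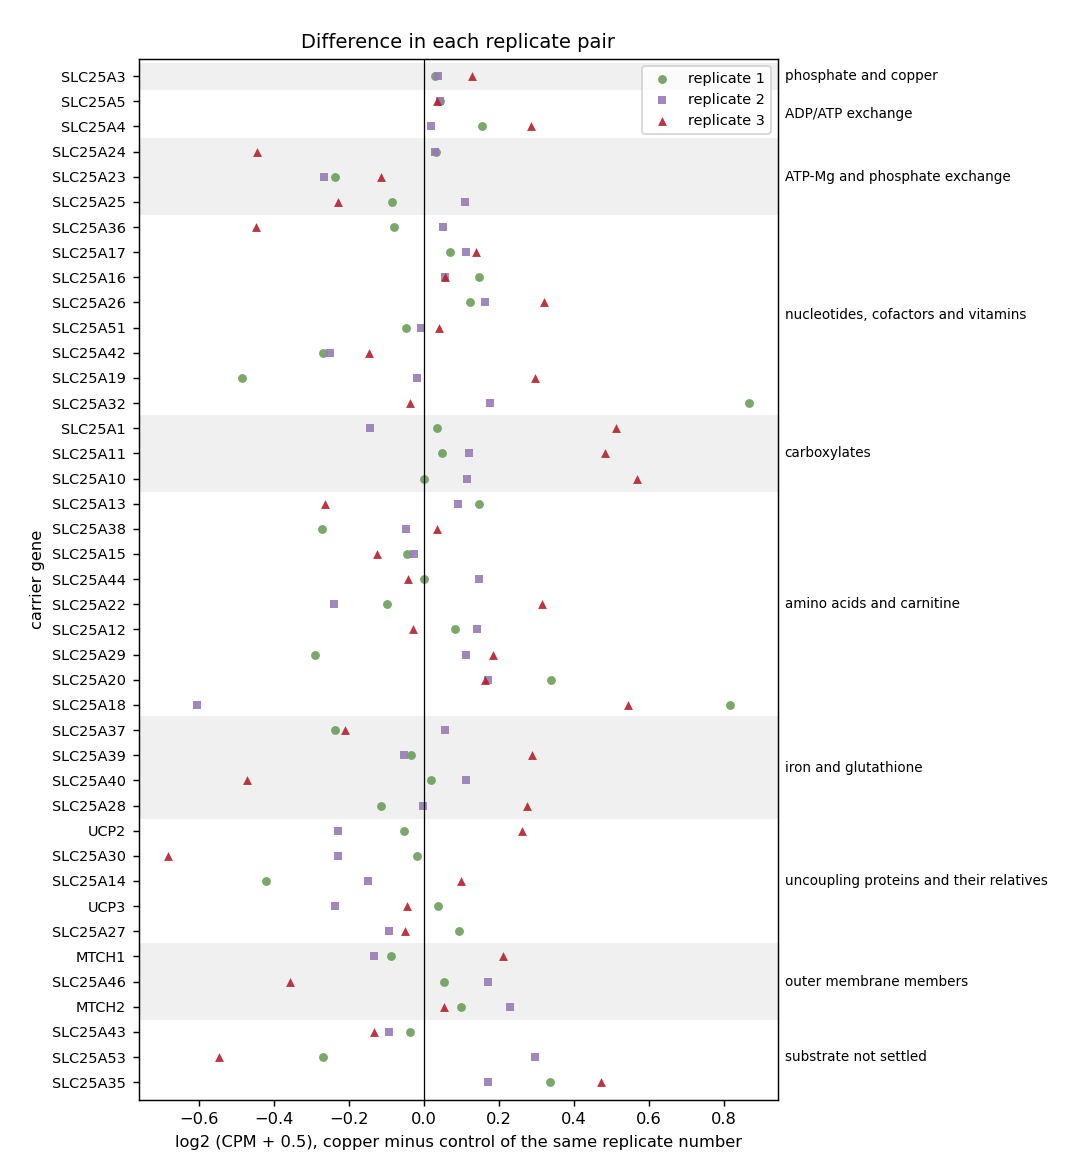
Difference between copper and control of the same replicate number for the 41 tested carriers, on the log2 (CPM + 0.5) scale. Each point is 1 pair; the replicate 3 point lies farthest from 0 for 23 of 41 carriers, among them SLC25A30 at -0.683 and SLC25A1 at 0.512.

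The replicate 3 differences of the carriers moved with the base composition of their transcripts. Across the 41 carriers, which are not independent points since they share libraries, Spearman's rho between the pair difference and the GC content of the transcript was -0.353, -0.349 and 0.61 in replicates 1, 2 and 3. Over 12439 tested genes it was -0.109, -0.305 and 0.507. With transcript length the carriers gave -0.0235, 0.0714 and -0.466, and the 12439 genes -0.0841, -0.0445 and -0.429. In replicate 3, 15 of the 20 carriers above the median GC content of 50.1% were higher in copper, and 8 of the 21 at or below it were. In replicate 1 the same counts were 9 of 20 and 13 of 21. Of the carriers with large replicate 3 differences, SLC25A1, SLC25A11 and SLC25A10 (64.3%, 62.8% and 66.1% GC) stood toward the GC-rich end. SLC25A40, SLC25A24 and SLC25A30 (34.2%, 36.3% and 41% GC) stood toward the other. Some carriers near these ends differed less in replicate 3, such as SLC25A29 (65.9% GC) by 0.184 and SLC25A32 (40.2% GC, few reads) by -0.038. The part of base composition in the carrier differences was not tested.

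**Figure D4:**
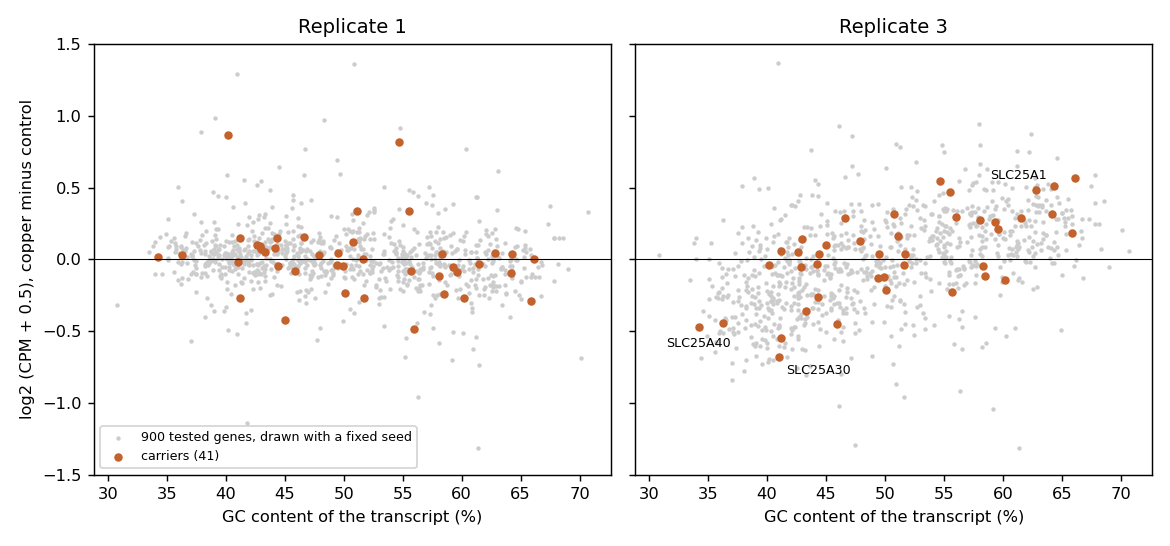
GC content of the transcript against the difference between copper and control of the same replicate number, for replicates 1 and 3. Orange points are the 41 tested carriers and grey points 900 tested genes drawn with a fixed seed. In replicate 3 both sets rise with GC content, with scatter, and SLC25A40, SLC25A30 and SLC25A1 are labelled.

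The genes that bring carriers into the membrane and the other transporters of mitochondria were set beside the family as 31 genes, all tested. None was called with or without the block, 19 lay above 0 and 12 below, and the median was 0.0119. At an unadjusted p under 0.05 there were 0 without the block and 1 with it. In the carrier import set (10 genes, median 0.0326) TIMM8B, a chaperone of the intermembrane space, had the smallest p and a log2 fold change of 0.215 (95% interval -0.146 to 0.576). In the set of other inner membrane transporters (17 genes, median 0.00648) it was SFXN5, a sideroflexin, with 0.184, and the lowest value was -0.209 for MPC1, a subunit of the pyruvate carrier. In the outer membrane set (4 genes, the VDAC pores and TSPO, median 0.0206) it was TSPO, a cholesterol-binding protein and not a pore, with 0.155. TSPO had 177, 161 and 281 CPM in copper and 178, 169 and 209 CPM in control, highest in copper 3, with pair differences of -0.0126, -0.0653 and 0.427. The channel VDAC1, through which most carrier substrates cross the outer membrane, had 446, 416 and 417 CPM in copper and 457, 431 and 403 CPM in control.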

How the data were processed

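A deposited table held whole-number counts per gene, not normalized by the authors, with a column for each of the 6 libraries. STAR, FastQC and edgeR are named with the build GRCh38 in the submitters' processing notes, without versions or roles. The counting program, its use of strand and its treatment of reads matching several genes are not given in the sources used here. A directional NEBNext kit was used on total RNA, per the labels. Starts in the table count from 0, and 1 was added. Genes without a symbol (5 of 25992, 0.000814% of counts) were left out.

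Counts were analysed with edgeR 4.0.16 in R 4.3.3. The filter was filterByExpr with a minimum count of 10 and a minimum total of 15, and scaling was by TMM. The 2 groups were compared in a robust quasi-likelihood fit (group as the only term), with a prior count of 2 for fold changes, Benjamini-Hochberg adjustment over all tested genes, and a threshold of 0.05. CPM values use TMM library sizes. Pair differences are of log2 (CPM + 0.5). Intervals are 95% intervals from the fit. Within groups the lowest chi-square between libraries was 5.398 per degree of freedom, so each was counted separately. The biological coefficient of variation was 15.4%, and 9.05% with the block. DESeq2 1.42.0 and limma 3.58.1 were alternatives. Scripts were tested on simulated data.

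Replicates are numbered 1 to 3 in each group, and nothing in the labels ties equal numbers to a shared day. Across tested genes the deviations of same-numbered libraries from their group means correlated at 0.462, 0.396 and 0.652, above the minimum of 0.1 for pairing. Copper 1 with control 2 (0.317) and copper 2 with control 1 (0.272) also exceeded that minimum. Deviations from a group mean sum to 0, so these values depend on one another. The check therefore does not show that equal numbers belong together in replicates 1 and 2. Blocked values are printed where they alter a result. Transcript length and GC content are those of the transcript of lower-median length in GENCODE 29, found for 96.1% of tested genes. It was taken among transcripts with a consensus coding sequence, else among coding ones, else among all, so non-coding genes are included. Words of 50 bases were taken from that 1 transcript of each carrier and looked up in all annotated transcripts of other genes.

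The members, lists and roles were chosen with earlier results of these data known. Genes with values were named by a rule: SLC25A3, the ADP/ATP, mitoferrin, aspartate/glutamate and glutathione carriers, UCP2, the highest per kilobase and the smallest p in each role, the 10 smallest p, and the smallest p of each other transport list. SLC25A16, SLC25A41, SLC25A45, UCP3, SLC25A27, SLC25A18, SLC25A29, MPC1 and VDAC1 were added after their values were seen. A further marker gene is not reported here.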

Additional observations from a re-analysis of the deposited data

How the results depend on the processing

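Over 21 alternatives (scaling, filter, tool, replicate block, libraries left out), carriers called stayed at 0 except for SLC25A23 in the replicate block without replicate 3, so leaving out libraries gave 0 to 1 carriers. Other mitochondrial transport genes were 0 in every one, and SLC25A3 stayed between 0.0325 and 0.097 and uncalled. With the replicate block 22 of all genes were called, against 0 without it. DESeq2 called 27, the block in DESeq2 58, no filter 12, a term for replicate 3 35 and replicates 1 and 2 alone 111. Leaving out 1 library gave 0 to 15 calls, the most without copper replicate 3, and the block without replicate 1, 2 or 3 gave 74, 77 and 912. The carrier median was 0.0299 with upper-quartile and 0.0317 with total-count scaling, under which the median over all tested genes was 0.0281 and 0.0325. With 1 library left out the carrier median was -0.00514 to 0.0476, while that over all tested genes was -0.00105 to 0.00902. In the block without replicates 1 and 2 in turn, the carrier median was 0.0349 and 0.0282. Over all tested genes it was -0.0081 and -0.0016 there.

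Of 504 values of 24 named carriers, 458 kept their direction and side of the threshold and 45 reversed, none of them called. UCP2 became 0.00151 with total-count scaling. SLC25A13 and MTCH1 were -0.000217 and -0.0131 without a filter, -0.0122 and -0.00323 with limma-voom, -0.00671 and -0.00309 with the block, -0.00951 and -0.00537 with the block in DESeq2, and -0.00579 and -0.00316 with a term for replicate 3. From replicates 1 and 2 alone SLC25A1 was -0.0538, MTCH1 -0.111, SLC25A24 0.0297, SLC25A39 -0.0457, SLC25A40 0.0652 and SLC25A28 -0.0579. The cause was not tested.

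With 1 library left out, log2 fold changes ran from -0.147 (without copper 1) to 0.233 (without copper 3) for SLC25A13, from -0.174 to 0.085 for UCP2, from -0.309 (without copper 3) to 0.0881 (without control 3) for SLC25A37, from -0.0216 to 0.184 for SLC25A12 and from -0.00182 (without copper 1) to 0.0772 for SLC25A5. Those that reversed without copper 3 ran from -0.0852 to 0.305 (SLC25A1), -0.119 to 0.0653 (MTCH1), -0.21 to 0.0807 (SLC25A24), -0.00738 to 0.116 (SLC25A39), -0.185 to 0.0384 (SLC25A40) and -0.153 to 0.205 (SLC25A28). In the block without replicate 3 the last 6 were -0.0542, -0.111, 0.0299, -0.0452, 0.0654 and -0.0603. In the block without replicates 1 and 2 in turn, SLC25A13 was -0.0899 and -0.0568, and UCP2 0.00933 and 0.103.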
